A study of Bos taurus and Bos indicus x Bos taurus with 938 samples.

Results

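The regions described here are 2326 commonly open stretches of chromatin in single blastomeres of bovine embryos. They were chosen by their measured openness, as the regions in rows V274101 to V294500 of a table of open and closed calls that were called open in at least 20% of its blastomeres. They make up 11.4% of the 20400 rows of that segment and 0.768% of all regions in the table, and they hold 10.4% of all open calls. The segment is called mixed because it follows the 29 long blocks of regions open together that fill the rows before it. Regions carry running numbers only, so a name such as V277560 is a row number with no position and no gene attached to it. A member's overall openness was used by the rule and is given as a description. The rule pooled all embryos, so it is not independent of type. Of the members, 9.24% were open in under 20% of SCNT columns and 0.43% in under 20% of IVF columns, and these reached the rule only through the other type. Their differences between types, and the tests of them below, are descriptions.

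In ATAC-seq a Tn5 transposase cuts DNA where chromatin is accessible, so promoters, enhancers and other sites kept free of nucleosomes yield fragments while packed chromatin yields few. After fertilisation the chromatin of both parental genomes is remodelled, and in cattle the main activation of the embryo's own genes falls around the 8-cell stage. In somatic cell nuclear transfer (SCNT) the nucleus of a differentiated cell is placed in an enucleated oocyte, and the chromatin of that nucleus has to be reset before the same genes can be used.

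Embryos made by SCNT, whose libraries have the organism label Bos taurus, were compared with embryos made by in vitro fertilisation (IVF), labelled Bos indicus x Bos taurus. Oocytes came from abattoir ovaries and were matured in vitro, IVF used cryopreserved semen, and the labels used here do not name the donor cells of SCNT. The table held 43, 25 and 21 SCNT embryos of 2, 4 and 8 cells and 67, 22 and 14 IVF embryos of the same cell numbers, with 1 library per blastomere and the embryo as the replicate. Type cannot be told apart from library series, because SCNT libraries have the title prefixes 15243 and 15244 and IVF libraries 15286 and 15287, nor from the breed in the organism label. Depth in reads is unknown. The number of open calls per blastomere stands in for it, and its medians were 6465 in SCNT and 10770 in IVF blastomeres, with a highest value of 129163. Values below use blastomeres with at least 1000 calls. A closed call in a shallow blastomere may be a missed fragment.

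The members lay close together in the row order. Of the 2326, 1896 (81.5%) had another member in the row before or after. All members together formed 739 runs of adjacent rows, of which 430 held 1 member. With gaps of up to 15 rows joined, 19 stretches held at least 20 members. Of these, 14 lay between V275087 and V278565, held 65.3% of the members and are called the dense zone. The other 5 stretches held 12% of the members. They were an unbroken run from V282136 to V282280, the longest in the segment with 6.23% of the members, an unbroken run of 33 from V283161 to V283193, and the stretches V283477 to V283519, V283542 to V283599 and V284434 to V284465 with 28, 41 and 32 members. The remaining 22.7% were scattered. These sets were drawn from the row order after the values had been seen.

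**Figure D1:**
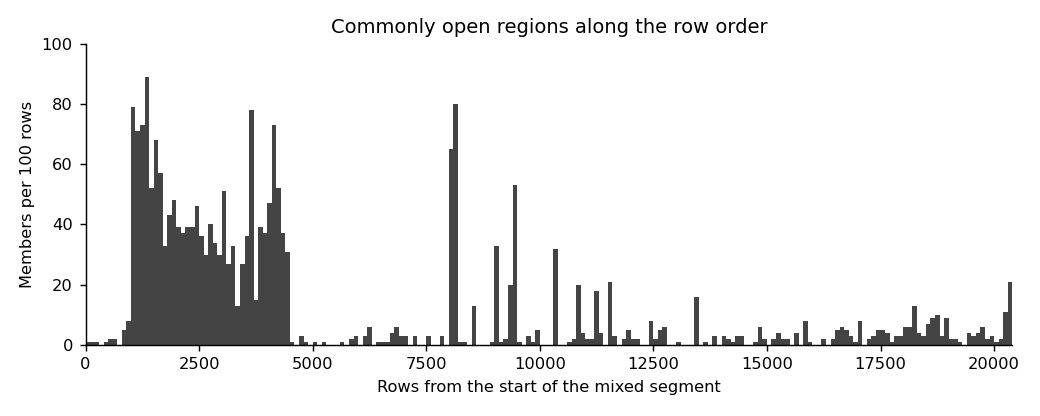
Members per 100 rows (vertical axis) against the distance in rows from the start of the mixed segment (horizontal axis); each bar is 1 bin of 100 rows. Members crowd into the early rows that form the dense zone, up to 89 in 100 rows, and the longest run stands alone further on.

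The median member was open in 53.2% of columns, the lowest in 20% and the highest in 98.9%, and 1337 members (57.5%) were open in more columns than closed. The other 18074 rows of the segment had a median of 2.69%. Outside the segment, the regions that also reached 20% of columns had a median of 24.9%, and 7.15% of them were open in more columns than closed. At the top of the list, V291665 was open in 98.9% and V290692 in 98.7% of columns. Both were open in 94.6% to 100% of blastomeres, as embryo means, in each of the 6 groups. At the threshold, V275581, V280849 and V282622 lay just inside, and V276932, V277400 and V285917, each open in 1 column fewer, just outside.

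Members took up a larger part of shallow profiles than of deep ones. The median share of a blastomere's calls that lay in members was 17.6% in SCNT and 39% in IVF blastomeres with 1000 to 2000 calls, and 6.1% in SCNT and 6.78% in IVF blastomeres with 20000 to 40000 calls. At the same time more of the members were open in deeper blastomeres. At equal depth SCNT blastomeres had fewer members open than IVF blastomeres. With 4000 to 6000 calls the median blastomere had 34% of members open in SCNT (77 blastomeres of 53 embryos, all cell numbers together) and 50.9% in IVF (35 of 31). With 9000 to 13000 calls it was 51% in SCNT and 70.8% in IVF. The commonly open regions outside the segment did not show this order. Their medians were 15.6% in SCNT and 15.4% in IVF in the shallower of these bins, and 34.2% in SCNT and 28% in IVF in the deeper one.

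**Figure D2:**
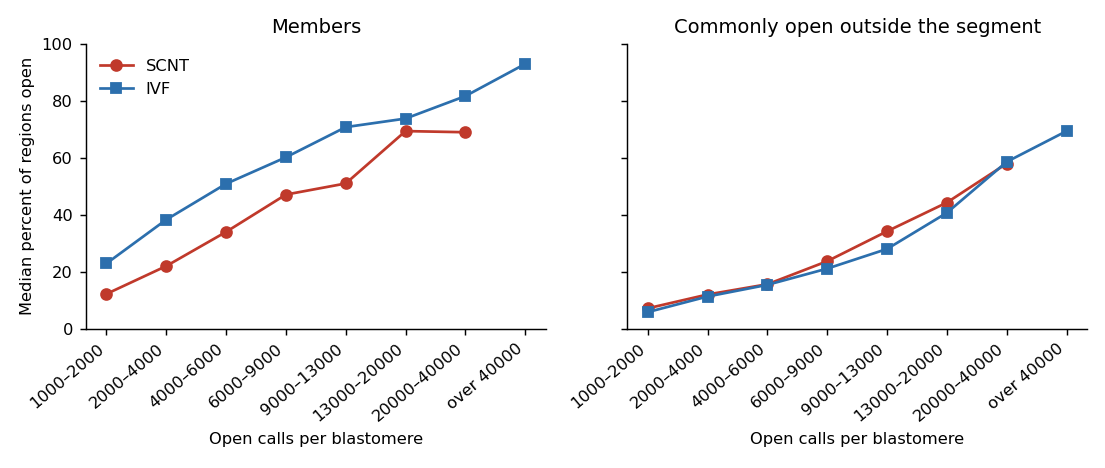
Median percent of regions open per blastomere (vertical axis) by number of open calls in the blastomere (horizontal axis), for members (left) and for the commonly open regions outside the segment (right); points with fewer than 10 blastomeres are not drawn. SCNT lies under IVF in every drawn bin that holds both types for members, 34% against 50.9% with 4000 to 6000 calls, while for the outside regions SCNT lies above IVF in all drawn bins of both types but the last, 15.6% against 15.4% with 4000 to 6000 calls.

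In 2-cell embryos the mean over SCNT embryos was 36.2% of members open (SD 22.2, n = 37), against 66.3% (SD 15.6, n = 66) over IVF embryos. The lowest, median and highest embryo had 4.69%, 31.1% and 83.4% in SCNT, and 19.8%, 68.9% and 91.8% in IVF. At 4 cells SCNT embryos had 31.3% (SD 14.9, n = 24) and IVF embryos 61.1% (SD 15.8, n = 21). At 8 cells SCNT embryos had 50.7% (SD 18.7, n = 21) and IVF embryos 61.3% (SD 14, n = 14). Embryos of both types overlapped at every stage, and the gap between the types was smallest at 8 cells. Within SCNT the library series differed. Prefix 15243 had 42% (n = 27) and prefix 15244 had 20.7% (n = 10) of members open at 2 cells, and 56.7% (n = 12) and 42.6% (n = 9) at 8 cells. SCNT embryos also had fewer calls, and the averages over the outside regions were lower in SCNT too, at 24.8% ± 7.67 in SCNT and 42.5% ± 16.3 in IVF 8-cell embryos. In blastomeres with 6000 to 13000 calls, members were open at 48.9%, 43.4% and 54.7% in SCNT and at 65.7%, 59.5% and 61.4% in IVF embryos of 2, 4 and 8 cells. That window holds only 4 SCNT 2-cell embryos.

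The share of an embryo's calls that lay in members differed by less than the spread between embryos, at 14.7% ± 5.97 in SCNT and 15.9% ± 6.01 in IVF 2-cell embryos and 18.6% ± 8.55 in SCNT and 14.9% ± 8.31 in IVF 8-cell embryos. These averages are not at equal depth, as 2-cell blastomeres had medians of 3484 calls in SCNT and 10168 in IVF. At equal depth the share was lower in SCNT in every bin up to 40000 calls. Its median was 15.9% in SCNT and 26% in IVF blastomeres with 4000 to 6000 calls, and 11.2% and 14.8% with 9000 to 13000.

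The sets differed in how they compared. In the dense zone 38.2% ± 24.6 of members were open in SCNT and 72.5% ± 15.9 in IVF 2-cell embryos, and 53.5% ± 22.1 in SCNT and 66.6% ± 15.4 in IVF 8-cell embryos. The longest run lay lower in SCNT at 2 cells and higher at 8 cells. It was open at 45.7% ± 27.7 in SCNT and 70.9% ± 22.2 in IVF 2-cell embryos, but at 71% ± 26.4 in SCNT and 65.6% ± 22.9 in IVF 8-cell embryos. The run of 33 was open at 35.2% ± 25.7, 50.2% ± 22.0 and 74.1% ± 20.3 in SCNT embryos of 2, 4 and 8 cells. In IVF embryos it was open at 38.8% ± 21.7, 47.4% ± 24.7 and 48.3% ± 28.8. It was the 1 of these 3 sets with the higher mean in SCNT at both 4 and 8 cells, although SCNT blastomeres had fewer calls. In blastomeres with 6000 to 13000 calls it was open at 41.7%, 74.6% and 79.1% in SCNT and at 36.4%, 38.1% and 49.3% in IVF embryos of 2, 4 and 8 cells.

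**Figure D3:**
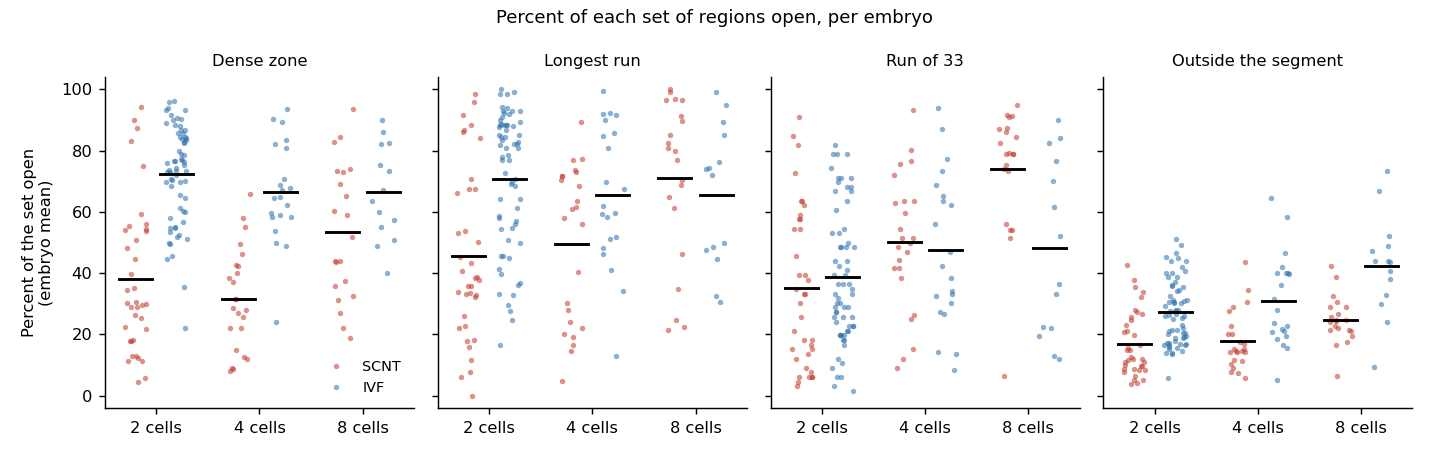
Percent of each set open (vertical axis), 1 point per embryo as the mean over its blastomeres with at least 1000 calls, SCNT left of IVF at each cell number, with black bars for the mean over embryos. The dense zone is lower in SCNT, 38.2% against 72.5% at 2 cells, while the run of 33 reaches 74.1% in SCNT against 48.3% in IVF at 8 cells.

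Each region was tested in 2 ways over all 91058 regions with a call in at least 10% of embryos, and all 2326 members passed that filter. A score test compared observed calls with those expected from the depth of each blastomere, and its p-value was kept no smaller than an exact binomial p, with Benjamini-Hochberg adjustment. This bound can only raise a p-value, so it lowers power. By how much it does so for regions open in most blastomeres was not tested. A limma fit, added after the score test's counts had been seen, compared the percent of an embryo's blastomeres open, with the number of calls as a covariate. Its differences are in percentage points at equal calls.

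At 2 cells the score test called 3 members higher in SCNT than IVF embryos and 1 lower. Of all tested regions it called 0.0395% higher and 0.0011% lower, 0.0406% in either direction. At 4 cells it called 2 members higher (0.0044% of all regions) and 0 lower (0.0% of all regions). At an unadjusted p under 0.05 it had 28.5% of members at 2 cells (3.45% of all regions) and 38.1% at 4 cells (4.04% of all regions). The calls past the adjusted threshold were few and depended on the setting. At 4 cells the score test called 0 members when embryos under 5000 calls were left out, when the blastomere factor came from outside the segment, without blastomeres that lacked a whole block of the table, with a filter at 2% of embryos, and with embryos thinned to equal totals. At 2 cells it called 0 without the blastomeres that lacked a block and with thinned embryos. Leaving out blastomeres that lacked a block also left out those with under 2000 calls in the blocks. Without the exact bound the score test called 0.602% higher and 9.8% lower at 2 cells, and 0.731% higher and 2.19% lower at 4 cells. The shares of all regions without that bound are not given here. By limma, too, most calls were lower. In SCNT 2-cell embryos 6 members were higher (background 0.316%) and 28.8% of members were lower (background 0.814%, either direction 1.13%). In SCNT 4-cell embryos 17 members were higher (background 0.113%) and 30.6% were lower (background 1.11%, either direction 1.22%). Among the commonly open regions outside the segment limma called 1.97% lower at 2 cells and 3.07% at 4 cells. The median difference over all members was -17.87 points at 2 cells and -18.71 points at 4 cells, against -0.10 and -0.61 over all regions. By the score test the median log2 ratio of members was -0.41 at 2 cells and -0.54 at 4 cells, against 0.04 and 0.08 over all regions. Of the members limma called lower, those shared by both stages were 70.1% of the 2-cell list and 66.1% of the 4-cell list. In the dense zone 39.1% of members were lower at 2 cells and 41.2% at 4 cells. Without blastomeres that lacked a block or had under 2000 block calls, limma called 5.12% of members lower at 2 cells and 4.26% at 4 cells. That fit had fewer embryos, 29 SCNT and 38 IVF at 2 cells and 21 SCNT and 16 IVF at 4 cells. The share of all regions called in it is not given here, so the drop is not read as particular to members.

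At 8 cells the score test called 6.62% of members higher in SCNT than IVF embryos (1.13% of all regions) and 23 members, 0.989%, lower (0.834% of all regions, 1.96% in either direction). The commonly open regions outside the segment had 7.57% higher and 2.33% lower. By limma 9.46% of members were higher (background 1.89%) and 12.3% lower (background 8.72%, either direction 10.6%), and outside the segment 4.2% were higher and 29.9% lower. The tests split the directions differently, and without SCNT 8-cell embryo 52 limma called 11.3% higher and 8.43% lower, so no direction is given for the members as a whole at this stage. Their median was 0.02 as a log2 ratio and -4.76 points by limma, against 0.02 and 0.66 over all regions. With embryos thinned to 5000 calls each the score test called 0 members, and 0 when the expectation came from blastomeres of the same depth. SCNT 8-cell blastomeres had a median of 7061 calls each, so thinning dropped most calls of such embryos and lowered power. The part of lost power in the 0 was not tested.

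**Figure D4:**
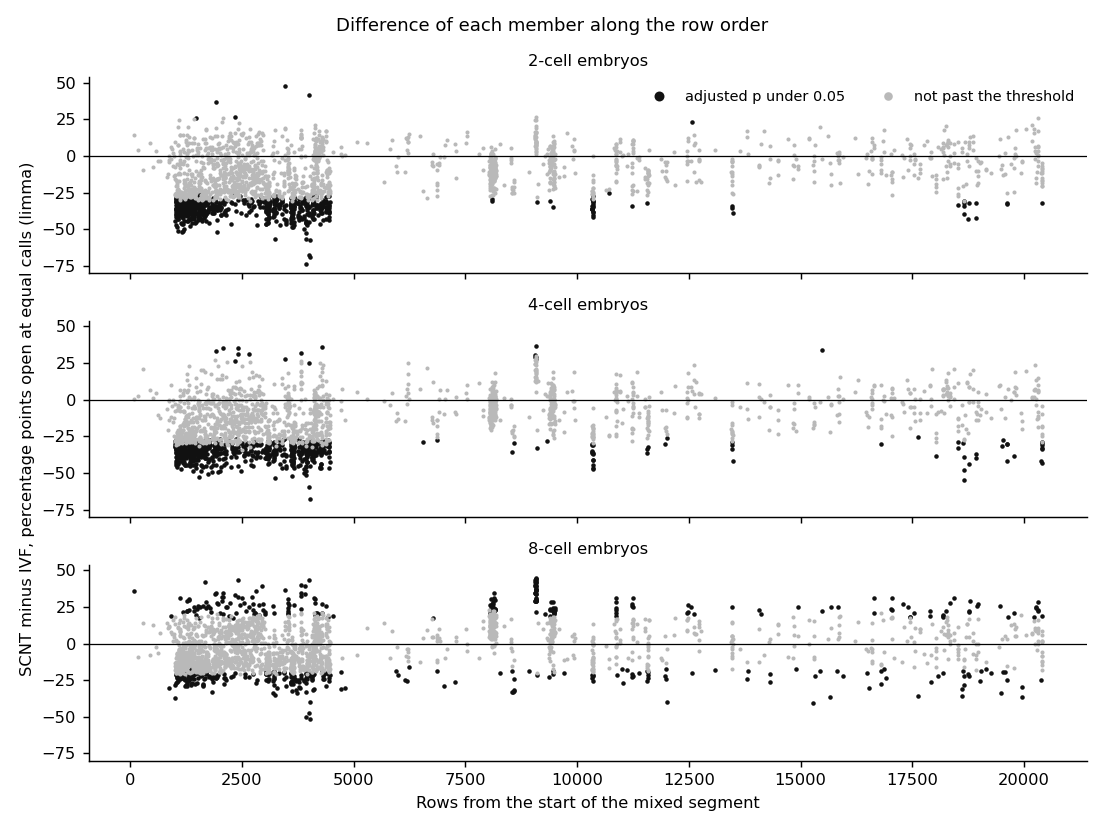
SCNT minus IVF difference of each member in percentage points open at equal calls by limma (vertical axis) against the distance in rows from the start of the mixed segment (horizontal axis), for 2-, 4- and 8-cell embryos; black points pass an adjusted p of 0.05. Members of the dense zone lie mostly below 0 at 2 and 4 cells, with median differences of -24.87 and -26.24 points, and the run of 33 stands above 0 at 8 cells with a median of 35.92.

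The run of 33 had the highest share of calls of the sets at 8 cells. In it 30 of 33 members were higher in SCNT than IVF 8-cell embryos by the score test and 31 by limma, with 1 lower by limma. Its median difference was 35.92 points. At 2 cells 0 of its members were called by the score test and 1, lower, by limma. V283176, a member of this run, was open on average in 73.8% ± 22.3 of an embryo's blastomeres in SCNT and in 36.5% ± 29.5 in IVF 8-cell embryos (SD, n = 21 and 14). The lowest, median and highest embryo were 0%, 75% and 100% in SCNT and 0%, 29.2% and 85.7% in IVF. The groups overlapped, although 20 of 21 SCNT embryos had it open in at least 1 blastomere. It was higher in SCNT by 44.7 ± 6.42 points (SE, limma adjusted p = 3.1e-09) and by 1.65 ± 0.30 as a log2 ratio (SE, score test adjusted p = 0.000303). V283190, further along the run, was open at 63.3% ± 25.6 in SCNT and 31.1% ± 26.8 in IVF 8-cell embryos, higher by 42.1 points by limma (adjusted p = 1.82e-08). In the longest run 13 members were higher in SCNT 8-cell embryos by the score test and 24 by limma, and 0 were lower by either test.

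The members V277560 and V278108 were open in many SCNT embryos and in few IVF embryos at every stage. V277560 was open in at least 1 blastomere of 21 of 37, 13 of 24 and 18 of 21 SCNT embryos of 2, 4 and 8 cells, against 3 of 66, 2 of 21 and 1 of 14 IVF embryos. Its means were 41.9% ± 41.7, 25% ± 28.2 and 44.7% ± 33 in SCNT and 2.27% ± 10.5, 2.38% ± 7.52 and 5.36% ± 20 in IVF embryos. V277560 was open in 37.8% of SCNT and 4.52% of IVF columns, so it passed the 20% rule only through SCNT, and its tests describe a member chosen that way. It was the 1 member called higher by the score test at all 3 stages, with log2 ratios of 4.93 ± 0.98 (SE, adjusted p = 1.16e-08), 4.12 ± 0.98 (adjusted p = 0.0319) and 3.71 ± 0.78 (adjusted p = 2.81e-05) at 2, 4 and 8 cells. V278108 was open in 19 of 37, 11 of 24 and 20 of 21 SCNT embryos, against 4 of 66, 3 of 21 and 1 of 14 IVF embryos. By the score test it was higher in SCNT at 2 cells (adjusted p = 3.89e-07) and at 8 cells (adjusted p = 7.2e-06) but did not pass at 4 cells (adjusted p = 0.13), where limma gave 24.8 ± 6.28 points (adjusted p = 0.0126). V278108, too, reached 20% only through SCNT, with 35.9% of SCNT and 5.28% of IVF columns. Both were higher in the type with fewer calls. The 1 IVF 8-cell embryo in which either was open was the same, the embryo labelled 8-CELL, with V277560 open in 75% and V278108 in 62.5% of its blastomeres. Without it both were at 0% in the other 13 IVF 8-cell embryos. In blastomeres with 6000 to 13000 calls V277560 was open in 25 of 64 in SCNT and 0 of 32 in IVF 8-cell embryos.

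Rows next to these members missed the 20% rule and were picked after their values had been seen. V277559 and V277561, on either side of V277560, were open in 9.89% and 17% of columns. V277559 averaged 16.2%, 9.72% and 23.4% in SCNT and 0.758%, 2.38% and 4.46% in IVF embryos of 2, 4 and 8 cells. It passed at 8 cells (limma adjusted p = 9.38e-07) but not at 2 or 4 cells by either test (limma adjusted p = 0.248 and 0.238). V277561 averaged 23%, 13.9% and 41.7% in SCNT and 3.03%, 2.38% and 5.48% in IVF embryos, and passed at 2 and 8 cells but not at 4 cells (limma adjusted p = 0.275). V278109, next to V278108, averaged 25.7%, 16% and 33.5% in SCNT and 2.27%, 0% and 5.36% in IVF embryos. It passed by limma at every stage, and by the score test at 2 and 8 cells but not at 4 cells (adjusted p = 0.105).

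V275581 was called higher in SCNT at 2 cells, at 32.4% ± 41.2 in SCNT and 12.9% ± 26.8 in IVF, and at 8 cells, at 24.4% ± 20.8 in SCNT and 12.5% ± 22.3 in IVF (score test adjusted p = 0.0404 and 0.0427). Limma passed it at 2 cells (adjusted p = 0.0151) but not at 8 cells (adjusted p = 0.55). The embryo labelled 8-CELL had it open in 75% of its blastomeres, and without that embryo the IVF 8-cell mean was 7.72% ± 13.7 (n = 13; score test adjusted p = 0.0166, limma adjusted p = 0.254). V275581 was open in 27.8% of SCNT and 11.8% of IVF columns, so it, too, reached 20% only through SCNT. V289567 was called higher in SCNT at 4 cells, at 49.3% ± 34.7 in SCNT and 20.2% ± 32.2 in IVF, and at 8 cells, at 36.7% ± 29.8 in SCNT and 13.1% ± 20.7 in IVF (score test adjusted p = 0.038 and 0.00123). The 4-cell call, like that of V277560, did not hold under the alternatives that left 0 members called at 4 cells, given with the counts above.

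Other members a few rows away had the opposite pattern. V278113 averaged 9.46% ± 23.1, 21.5% ± 23.4 and 26.4% ± 27.6 in SCNT embryos of 2, 4 and 8 cells, against 76.5% ± 26.6, 81.3% ± 21.2 and 72% ± 22.8 in IVF embryos. It was open in 6 of 37 SCNT and in 65 of 66 IVF 2-cell embryos, and the ranges of both types overlapped. It was the 1 member called lower in SCNT 2-cell embryos by the score test, with a log2 ratio of -2.30 ± 0.54 (SE, adjusted p = 0.0182). Limma gave -67.6 ± 7.85, -59.8 ± 8.02 and -47.7 ± 6.72 points at 2, 4 and 8 cells, with adjusted p-values of 7.25e-13, 4.3e-09 and 1.22e-09. V278116 and V278032, chosen after their values were seen, were open in nearly every IVF blastomere but in a minority of SCNT blastomeres. V278116 averaged 28.4%, 35.1% and 44% in SCNT and 94.7%, 97.6% and 97.3% in IVF embryos of 2, 4 and 8 cells. V278032 averaged 25.7%, 38.9% and 44.2% in SCNT and 96.2%, 91.3% and 95.4% in IVF. At 8 cells both were lower in SCNT by both tests (score test adjusted p = 0.0253 and 0.0264). V278114 and V278117 were open in 91.6% and 94.1% of columns, so the neighbouring rows V278108 to V278117 held members of all these kinds.

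**Figure D5:**
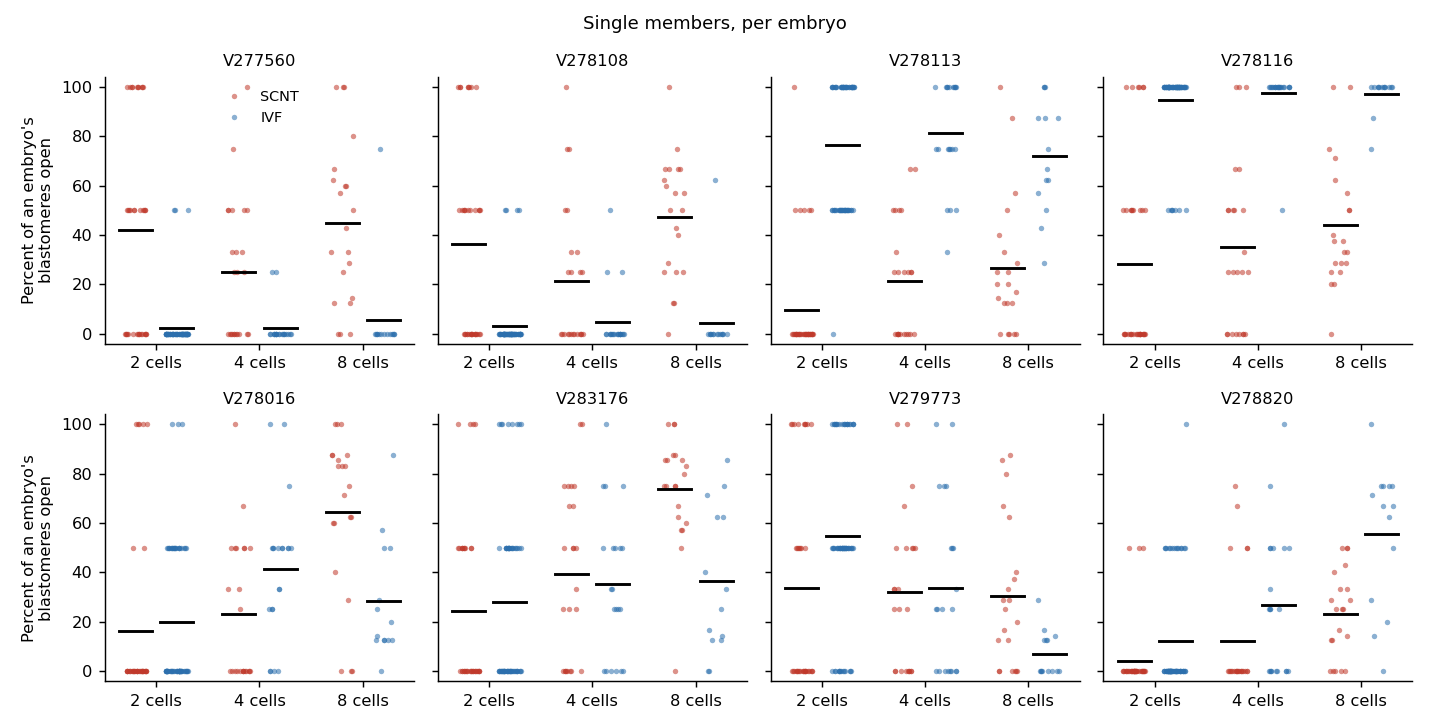
Percent of an embryo's blastomeres in which 8 single members were open (vertical axis), 1 point per embryo with at least 1000 calls, SCNT left of IVF at each cell number, with black bars for the mean. V277560 and V278108 lie near 0 in IVF and between 21.5% and 47.1% on average in SCNT, V278113 and V278116 are higher in IVF, and the lower row shows 4 members named for differences at 8 cells.

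Within IVF, 48 members (2.06%) were higher and 4.77% lower in 8-cell than in 2-cell embryos by the score test, against 7.52% higher and 2.88% lower over all regions, 10.4% in either direction. By limma 4.73% were higher (background 17.2%) and 23.9% lower (background 12.3%, either direction 29.5%). The commonly open regions outside the segment went mostly the other way, with 39.1% higher and 6.24% lower by the score test. The median log2 ratio of members was -0.24, against -0.17 over all regions and 0.87 over the outside regions. Among the members that fell, V279773 was open in 6 of 14 IVF 8-cell embryos and in 52 of 66 IVF 2-cell embryos. By embryo its lowest, median and highest values were 0%, 0% and 28.6% at 8 cells and 0%, 50% and 100% at 2 cells. The log2 ratio was -3.10 ± 0.59 (SE, score test adjusted p = 1.28e-05), and the groups overlapped at the low end. In SCNT embryos V279773 averaged 33.8%, 31.9% and 30.3% at 2, 4 and 8 cells. V286637, V290890 and V285439 also fell in IVF, with means of 44.7%, 26.2% and 6.49%, of 43.2%, 32.1% and 8.29%, and of 62.1%, 31% and 15.3% in embryos of 2, 4 and 8 cells.

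Among the members that rose in IVF, V278820 was open in 13 of 14 embryos at 8 cells and in 15 of 66 at 2 cells, with means of 55.7% ± 28.9 and 12.1% ± 23.3 and a log2 ratio of 2.04 ± 0.35 (SE, score test adjusted p = 3.64e-05). In SCNT embryos it averaged 23.2% at 8 cells and 4.05% at 2 cells. V292010 averaged 52.6% ± 24.7 in 8-cell and 12.1% ± 26.4 in 2-cell IVF embryos (score test adjusted p = 0.000135). V286114 and V289381 also rose in IVF (score test adjusted p = 0.004 and 0.000812), and both were lower in SCNT than IVF 8-cell embryos. V286114 was open in 6 of 21 SCNT and in 14 of 14 IVF 8-cell embryos, with means of 15.1% ± 27.3 in SCNT and 69.7% ± 31.9 in IVF and a log2 ratio of -1.57 ± 0.37 (SE, score test adjusted p = 0.00871). V292706 was open in 4 of 21 SCNT and 12 of 14 IVF 8-cell embryos, with means of 2.55% ± 5.4 in SCNT and 44.7% ± 32.7 in IVF (score test adjusted p = 0.00676). V286114, V289381, V292706 and V292010 were open in 17.3%, 13.5%, 11.4% and 17.8% of SCNT columns and reached 20% only through IVF.

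The stage comparison in IVF lies mostly between library series, because all 14 8-cell embryos have prefix 15287 and only 3 of the 66 tested 2-cell embryos do. Within that prefix 0 members passed by either test. Of the members that limma called over both prefixes, 86.3% had the same sign within it. The embryos of that prefix were also in the fit that called these members, so the shared sign is partly set by that choice and is a description. V279773 averaged 6.94% in the 14 8-cell and 50% in the 3 2-cell embryos of that prefix, and V278820 55.7% in the 8-cell and 0% in the 2-cell embryos. Whole blocks of regions were also missing from many IVF blastomeres. Without those blastomeres and those with under 2000 block calls, the score test called 1.68% of members in either direction in place of 6.84%. It called 37 members lower. The share of all regions called without them is not given here. The part of missing blocks in the remaining difference was not tested.

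Within SCNT the score test called 0 members in 8-cell against 2-cell embryos, and 0.0% of all 90665 regions it tested. At an unadjusted p under 0.05 it had 7.27% of members and 2.53% of all regions. Limma called 38 members higher (1.63%, background 0.0736%) and 0 lower (background 0.0121%, either direction 0.0857%). The run of 33 held 17 of the 38, the longest run 7 and the dense zone 13. V278016, in the dense zone, was open in 18 of 21 SCNT 8-cell and in 7 of 37 SCNT 2-cell embryos, with means of 64.7% ± 32.8 and 16.2% ± 35.5, and was higher by 48.7 ± 7.31 points (SE, limma adjusted p = 3.1e-06). V278013, a few rows before it, averaged 52.3% ± 28.1 in 8-cell and 16.2% ± 35.5 in 2-cell SCNT embryos, higher by 34.2 points (limma adjusted p = 0.00299). Both SCNT series held both stages. All 17 called members of the run of 33 were higher at 8 cells in each series, and 6 of the 17 passed within prefix 15243 and 0 within prefix 15244. They had been called on the same embryos with both series together, so the shared sign is partly set by that choice and is a description. V278016 averaged 68% in 12 8-cell and 11.1% in 27 2-cell embryos of prefix 15243 (limma adjusted p = 0.000495), and 60.2% in 9 8-cell and 30% in 10 2-cell embryos of prefix 15244 (limma adjusted p = 0.812). V278013 passed in neither, at 51.8% in 8-cell and 16.7% in 2-cell embryos of prefix 15243 (limma adjusted p = 0.374), and 53% in 8-cell and 15% in 2-cell embryos of prefix 15244 (limma adjusted p = 0.662).

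Whether the SCNT minus IVF difference changed between 2 and 8 cells was tested on its own. By limma it was more positive at 8 cells for 8.68% of members (background 0.83%) and more negative for 33 members, 1.42% (background 5.47%, either direction 6.3%). Of the outside regions 4.59% were more positive and 23.8% more negative. By the score test 2 members passed, both more positive (background 0.0315%), and 0 were more negative (background 0.0708%, either direction 0.102%). The median change was 15.68 points over members and 0.67 over all regions. V278016 changed by 42 ± 9.46 points (SE, limma adjusted p = 0.000915) and V278013 by 39.7 ± 8.82 (limma adjusted p = 0.000836). Without the blastomeres that lacked a block or had under 2000 block calls, limma called 29 members, 24 of them more positive. The share of all regions called without them is not given here.

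Embryos of one group differed widely in how many members were open. Among SCNT 8-cell embryos the values ran from 21.9% to 84.8%, with a median of 52.2%. They were not ordered by depth: SCNT 8-cell embryo 17 had 84.8% at a median of 4532 calls and embryo 25 had 26.2% at 7061 calls. The run of 33 was at 51.5% or more in all but 1 of these embryos, embryo 65, at 6.57%. Embryo 52 stood apart, with 21.9% of members, 6.29% of the outside regions and 42% of the 50 most often open members open at a median of 6555 calls, whereas the other SCNT 8-cell embryos had 84.8% or more of those 50 open. Without embryo 52 the score test called 7.61% of members at 8 cells, as with it. The SD between embryo means in SCNT 8-cell embryos was 18.7 points and the SD among blastomeres of one embryo 14.3 points. In IVF 8-cell embryos these were 14 and 14.3 points.

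Members tended to open in the same blastomeres. After the number of calls was taken out within each group, adjacent members had a median correlation over blastomeres of 0.296 in SCNT (273 blastomeres) and 0.201 in IVF (300), and members over 100 rows apart 0.121 and 0.0724. The percent open of the dense zone and of the scattered members correlated at 0.898 in SCNT and 0.644 in IVF. With the outside regions the dense zone correlated at only 0.15 in SCNT and 0.0553 in IVF. Blastomeres of an embryo share their origin and their total is part of every value, so these correlations are descriptions.

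Blastomeres that lacked a whole block of the table outside the segment still had the members open. In IVF 2-cell embryos 74.5% ± 12.2 of members were open in blastomeres that lacked a block (66 blastomeres, 44 embryos) and 60.9% ± 14.8 in those that lacked none (52 blastomeres, 38 embryos), at medians of 13029.5 and 6956.5 calls. Blastomeres with under 2000 block calls were not classed. Among those classed, 0 blastomeres of SCNT 8-cell embryos lacked a block. In blastomeres that lacked none, 43.8% ± 19.7 of members were open in SCNT and 60.9% ± 14.8 in IVF 2-cell embryos, at medians of 5701 calls in SCNT and 6956.5 in IVF.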

How the data were processed

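Single blastomeres of bovine SCNT and IVF embryos had been profiled by ATAC-seq. The submitters' processing notes name FastQC 0.10.1, Bowtie2 2.2.6 and bedtools, with no role. The sources used here do not give the genome build, the choice of regions or the rule for an open call. The values deposited by the authors are 0 or 1 for 302830 regions in 819 blastomeres and were read as closed or open calls. They are not read counts, so the score test takes the place of a count test.

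Columns were linked to libraries by adding an offset of 0, 499, 1000 or 1500 to the running number under prefixes 15243, 15244, 15286 and 15287. This is an inference from the numbering. Of 938 labelled libraries, 119 had no column and were not analysed here. Nothing states whether embryos came from separate oocyte batches, so p-values measure the spread between these embryos.

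A region was expected to be open with probability 1 - exp(-ab), where a is a factor of the blastomere and b of the region, fitted in 12 iterations. Calls were summed per embryo over embryos with at least 1000 calls and tested with a quasi-Poisson score statistic, two-sided, with limma-moderated dispersion, bounded by an exact binomial p and adjusted by Benjamini-Hochberg at 0.05. Limma 3.58.1 (R 4.3.3) was also fitted to the percent open per embryo, weighted by blastomeres, with a spline (3 degrees of freedom) of mean log10 calls. Difference-of-difference tests used regions with at least 5 calls per group. Both tests were checked on simulated calls. Blocks were rebuilt from bins of 100 regions, and a block was lacking where under 0.1 of its expected calls were seen in a blastomere with at least 2000 block calls. Fits without blastomeres that lacked a block also left out those with under 2000 block calls.

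Members, sets and lists were chosen with earlier results of these data known. Named are, per comparison and direction, up to 8 members of smallest adjusted score test p, members called in the same direction at 2 stages or more, the 10 most often open, 3 on each side of the rule and 1 from an earlier account. Others are marked as chosen after their values were seen. Alternatives were another filter, minimum, factor, prefix and embryo set, and thinning of each embryo to 5000 calls.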

Additional observations from a re-analysis of the deposited data

Results flagged for a closer look

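The SCNT minus IVF difference changed between 2-cell and 8-cell embryos at 20 named members by the limma test of that change, in percentage points. It became more positive at V278013 by 39.7, V278016 by 42, V279773 by 32.1, V282468 by 32, V283176 by 35.1, V283190 by 36.9, V283506 by 31.6 and V285439 by 37.4. At V279773, V282468, V283506 and V285439 IVF embryos had lost openness by 8 cells, and at the others SCNT embryos had gained it. The change was -26.0 at V278820, -32.3 at V278821, -31.6 at V280329, -26.2 at V280595, -35.8 at V286114, -34.3 at V289381, -38.9 at V289541, -31.8 at V289755, -28.9 at V292010, -41.0 at V292706, -25.5 at V294061 and -33.7 at V294062. V278013 reached 20% of columns only through SCNT. V278821, V280329, V286114, V289381, V289755, V292010, V292706, V294061 and V294062 reached it only through IVF. All the members listed had been named because of their values in the same embryos, so the changes are descriptions of selected members.

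Embryos of other cell numbers, 21 SCNT embryos of 1 to 16 cells and 18 IVF embryos of 3 to 16 cells, entered no comparison above. In them 7 members were looked at with a two-sided permutation test over embryos, Benjamini-Hochberg adjusted over the 7. Their blastomeres counted toward the 20% rule but not toward the choice of the 7. V277560, V278108 and V275581 passed that rule only through SCNT. V277560 averaged 41.6% ± 27 in SCNT and 5% ± 11.9 in IVF, higher by 36.6 points and open in 18 of 21 SCNT and 3 of 18 IVF embryos (permutation adjusted p = 3.5e-05, from the smallest p that 100000 permutations can give, 2e-05). V278108 was higher in SCNT by 27.8 points (permutation adjusted p = 0.000373) and V275581 by 32.3 points (permutation adjusted p = 0.000196). The SCNT minus IVF difference was -60.7 points at V278113, -56.5 at V278116 and -42.6 at V278032 (permutation adjusted p = 3.5e-05 each). V289567 did not pass, at 48.6% ± 29.3 in SCNT and 29.9% ± 28.9 in IVF (permutation adjusted p = 0.0517). Median calls were 10786 in SCNT and 11236 in IVF blastomeres here, so the types were closer in depth than at 2 cells, but the mix of cell numbers differed and library series still separates the types.

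Among IVF 3-cell embryos, 1 embryo stood apart with 26% of the dense zone open, against 61.5% to 82.5% in the other 5. Chance flags about 1 in 20 such groups, and 16 were looked at.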

How the results depend on the processing

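Values are the percent of members called. The shares of all regions under each alternative are not given beside them, so a shift is not read as particular to members. Against the score test as reported (0.172% at 2 cells, 0.086% at 4 cells and 7.61% at 8 cells for SCNT against IVF, 6.84% for IVF 8-cell against 2-cell embryos, 0.0% within SCNT and 0.0878% for the difference of contrasts), dropping the exact bound gave 10.4% at 2 cells, 2.92% at 4 cells and 11.8% within IVF. A filter at 25% of embryos gave 0.473% at 4 cells, and one at 2% gave 0.086% at 2 cells, 0.0% at 4 cells, 3.14% at 8 cells and 4.34% within IVF, as more regions were tested. Embryos with at least 5000 calls gave 0.086% at 2 cells and 0.0% at 4 cells. At 4 cells a blastomere factor from outside the segment gave 0.0% and one from common regions 0.258%. Leaving out blastomeres that lacked a block or had under 2000 block calls gave 0.0% at 2 and 4 cells and 1.68% within IVF. Thinning to 5000 calls per embryo gave 0.0% in all 4 of these comparisons. Depth bins gave 0.043% at 4 cells, 0.0% at 8 cells and 4.04% within IVF, and prefix 15287 alone 0.0%.

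By limma the values were 29.1%, 31.3% and 21.8% at 2, 4 and 8 cells, 28.6% within IVF, 1.63% within SCNT and 10.1% for the difference. With calls outside the segment as covariate they were 39.2%, 42.7%, 25.8%, 24.7%, 3.27% and 13%. Without blastomeres that lacked a block or had under 2000 block calls they were 5.25%, 4.26%, 12.4%, 19.3%, 0.387% and 1.25%. Without SCNT 8-cell embryo 52 they were 19.7% at 8 cells, 2.84% within SCNT and 12.9% for the difference. Without the IVF 8-cell embryo labelled 8-CELL they were 24.5% at 8 cells, 21.3% within IVF and 7.7% for the difference. Within prefixes limma gave 0.0% in 15287, 0.946% in 15243 and 0.043% in 15244. The limma fits, the depth bins and the fits without embryo 52 or the embryo labelled 8-CELL were chosen after seeing the data. The cause of these shifts was not tested. The share of calls in members kept its direction or moved within 1 SD under all settings tried. Of 318 levels of named regions, 295 moved by less than 1 SD between embryos when blastomeres under 5000 calls were left out. No paired analysis was possible because replicate labels name single blastomeres and the groups compared share none of them. Binary calls and few SCNT 2-cell blastomeres in the middle depth range limit what can be seen, and regions open in nearly all blastomeres carry little information in the score test.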
